A study of Mus musculus with 2 samples.

Results

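The genes of mitosis and of the G2/M step of the cell cycle were followed in mouse CD8 T cells that had been driven toward interleukin-17 production in culture (Tc17 cells). The set is a list of 39 named genes, chosen by symbol for their role in cell division, and all 39 were found among the 32285 genes in the count matrices. The CD8 T cells came from mesenteric lymph nodes of C57/B6N mice and were taken out with affinity beads. They were polarised with a Th17 cytokine and antibody kit and then given PMA at 100 ng/ml and ionomycin at 10 μg/ml for 3 h, agents that stand in for a T-cell receptor signal. 1 library came from mice labelled as an NFATc1 knock-out, Nfatc1 f/f × Cd4-Cre (KO-labelled), and 1 from mice labelled wild type (WT-labelled). Cd4-Cre is active in developing T cells, so that deletion covers T cells and not the rest of the animal. The sources used here give neither the age nor the number of the mice, nor whether cells of several mice were pooled.

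With 1 library per group no test was made and no p-value can be given. Intervals are 95% intervals of counting error alone: they treat transcripts counted by unique molecular identifiers (UMIs) as independent, and leave out the spread between mice, between cultures and between cells. After filtering, 709 KO-labelled and 1018 WT-labelled cells remained, with 17898193 and 24452538 UMIs in all and medians of 21436 and 20906 UMIs per cell. The transcript of the targeted gene, Nfatc1, ran against the labels, at 136 CPM (UMIs of the gene scaled to a common library total) in the KO-labelled library and 39.8 CPM in the WT-labelled library. The kit reads the 3′ end of transcripts, and the sources used here do not say which exons were deleted, so this level does not check the deletion. Every direction rests on the labels. Markers of the stated cell type were nearly universal: 99.7% of KO-labelled and 99.8% of WT-labelled cells had transcripts of 3 or more of the 15 CD8 T cell marker genes. Of 8 NK cell markers, 2 had 0 UMIs in both libraries, among them Ncr1, a defining receptor of NK cells. The 8 summed to 1.51 CPM in the KO-labelled and 2.21 CPM in the WT-labelled library. At least 3 of them were found in 0% of KO-labelled and 0.0982% of WT-labelled cells. At least 3 B cell markers were found in 0.423% of KO-labelled and 0.196% of WT-labelled cells, and 3 or more dendritic cell markers in 0.564% of KO-labelled and 0.393% of WT-labelled ones. Single markers of those types were more widespread: Ighm, an immunoglobulin gene, was seen in 28.9% of KO-labelled and 19.7% of WT-labelled cells (26.8 CPM in the KO-labelled and 16.8 CPM in the WT-labelled library), and Cd74, of antigen presentation, in 19.7% of KO-labelled and 28.6% of WT-labelled cells. The summed level of the 10 B cell markers was 32.4 CPM in the KO-labelled and 22.8 CPM in the WT-labelled library, and whether it bears on the mitotic genes was not tested.

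A cell that has copied its DNA enters mitosis when cyclin B and the kinase CDK1 reach full activity, and leaves it when the anaphase-promoting complex (APC/C), a ubiquitin ligase, marks cyclin B and securin for destruction. In between, condensin and topoisomerase II compact the chromosomes, kinetochores attach them to a spindle built by microtubule proteins and kinesins, and Aurora and Polo-like kinases time each step. Most of these genes are transcribed from late S phase to mitosis and are nearly silent in resting cells, and CD8 T cells, which divide quickly after activation, switch them on as a block.

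Transcripts of the mitotic genes were lower in the KO-labelled library across almost the whole list. Together they made up 1084 CPM in the KO-labelled library (19405 UMIs) and 1372 CPM in the WT-labelled library (33552 UMIs), a ratio of 0.790 (0.776 to 0.804). Of the 39 genes, 33 averaged at least 5 CPM over both libraries, and 32 of these were lower in the KO-labelled library, against 48.4% of all 8515 genes above the same floor. Their median log2 ratio of CPM (with a pseudocount of 1) was -0.42, beside 0.01 for all genes. At 1.5-fold or more, 6 genes were lower and 0 higher, while 6.56% of all genes were that much lower and 5.44% that much higher. The condensin subunit gene Smc4 was the 1 gene above the floor on the other side. Kif2c, Anln, Ttk, Nuf2, Gtse1 and Bub1 stayed below the floor.

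**Figure D1:**
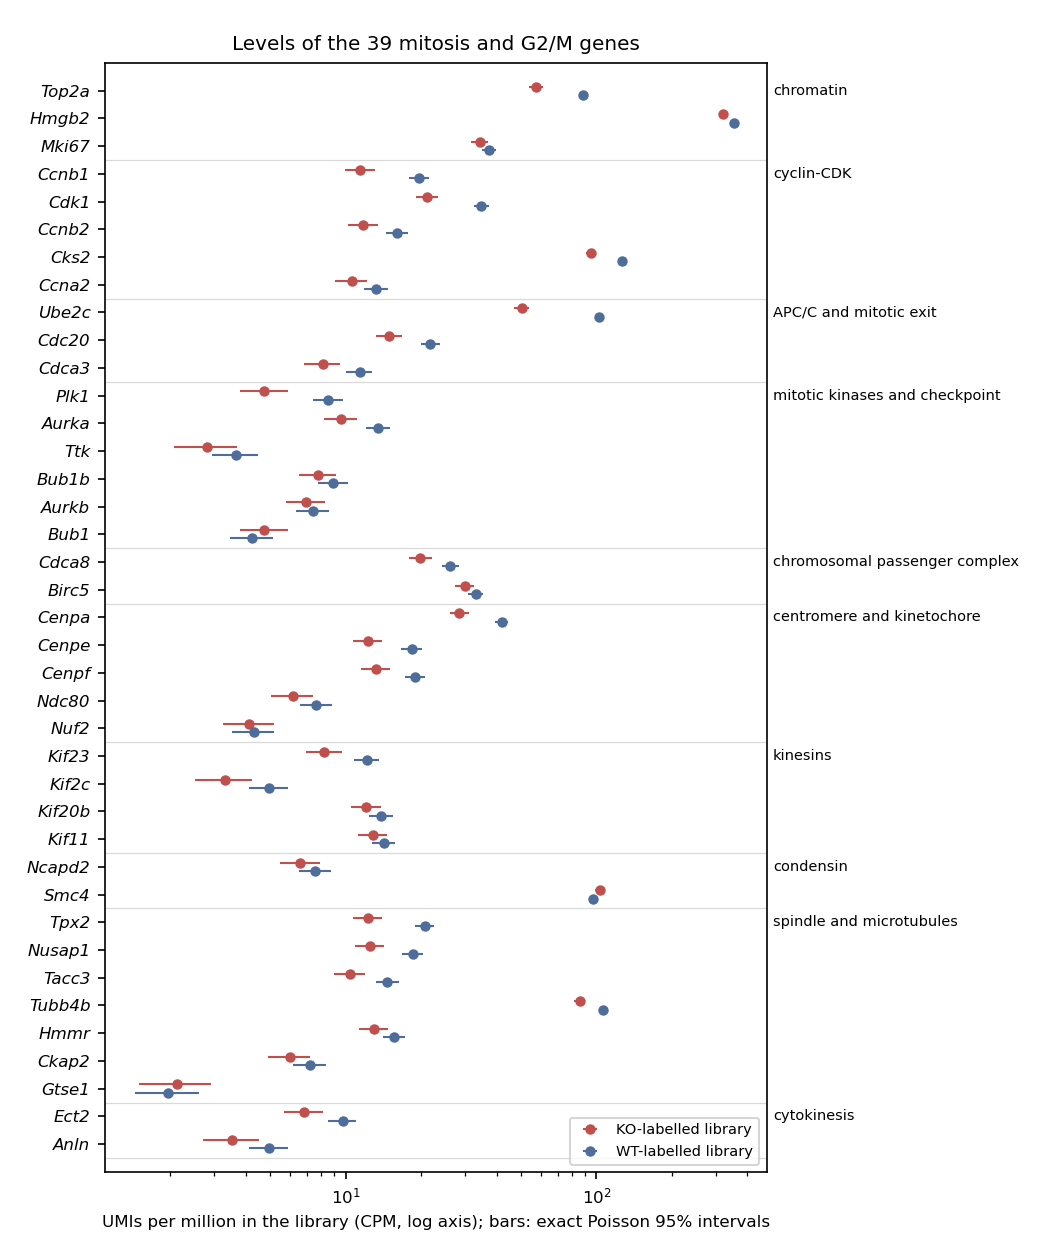
Level of each of the 39 genes in the KO-labelled library (red) and the WT-labelled library (blue), in CPM on a log axis, grouped by role, with exact Poisson 95% intervals. Red points lie left of blue ones for 36 of the 39 genes, and the gap is widest for Ube2c, at 50.3 against 102.6 CPM.

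The 6 genes at least 1.5-fold lower were Ube2c, Plk1, Ccnb1, Tpx2, Cdk1 and Top2a. Ube2c, the ubiquitin-conjugating enzyme that serves the APC/C, had 901 UMIs (50.3 CPM) in the KO-labelled library and 2509 UMIs (102.6 CPM) in the WT-labelled library. It was 2.04-fold lower in the KO-labelled library (1.89 to 2.20), the 1 gene of the list at least 2-fold apart, where 2.37% of all genes were at least 2-fold lower. Plk1, the Polo-like kinase of mitotic entry and spindle assembly, stood at 4.75 and 8.55 CPM in the KO-labelled and WT-labelled libraries, 1.80-fold lower in the KO-labelled one (1.39 to 2.34). Ccnb1 and Cdk1 encode cyclin B1 and the kinase it activates. Ccnb1 had 11.5 CPM in KO-labelled and 19.6 CPM in WT-labelled cells, 1.71-fold lower in the KO-labelled ones (1.45 to 2.03). Cdk1 had 21.2 CPM in KO-labelled and 34.8 CPM in WT-labelled cells, 1.64-fold lower (1.45 to 1.86). Tpx2, which helps nucleate spindle microtubules and activates Aurora A, had 12.2 CPM in KO-labelled and 20.7 CPM in WT-labelled cells, 1.69-fold lower (1.44 to 1.99). Top2a, the topoisomerase that untangles sister chromatids, had 57.4 CPM in KO-labelled and 88.8 CPM in WT-labelled cells, 1.55-fold lower (1.44 to 1.67). Plk1 lay close to the floor, with 85 and 209 UMIs in the KO-labelled and WT-labelled libraries, and its interval is the widest of the 6. With a pseudocount of 5 CPM, or with a floor of 20 CPM, 3 genes were at least 1.5-fold lower.

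Mitotic genes are known to share promoter elements. The cell cycle genes homology region (CHR) is bound by the MuvB core, as part of the DREAM repressor in resting cells and with B-Myb and FoxM1 in dividing ones, and CCAAT boxes nearby are bound by NF-Y. The promoters of the genes with the larger differences are shown to let these elements be seen side by side: 250 bases before and 50 after the annotated start, 5′ to 3′ on the strand of the gene, from RefSeq on GRCm38.p6, the assembly also called mm10. Capitals mark each match, on either strand, to the CHR words TTTGAA or TTCGAA and to CCAAT. Tpx2 has no entry in the promoter table.
Ube2c (chr2:164769679-164769978, plus strand): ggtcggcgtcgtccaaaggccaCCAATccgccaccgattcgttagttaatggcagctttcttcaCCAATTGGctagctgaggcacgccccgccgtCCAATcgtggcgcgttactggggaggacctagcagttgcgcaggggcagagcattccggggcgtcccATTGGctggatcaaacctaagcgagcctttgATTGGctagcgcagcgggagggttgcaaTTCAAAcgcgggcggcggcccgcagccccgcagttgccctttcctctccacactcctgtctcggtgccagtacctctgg
Plk1 (chr7:122159185-122159484, plus strand): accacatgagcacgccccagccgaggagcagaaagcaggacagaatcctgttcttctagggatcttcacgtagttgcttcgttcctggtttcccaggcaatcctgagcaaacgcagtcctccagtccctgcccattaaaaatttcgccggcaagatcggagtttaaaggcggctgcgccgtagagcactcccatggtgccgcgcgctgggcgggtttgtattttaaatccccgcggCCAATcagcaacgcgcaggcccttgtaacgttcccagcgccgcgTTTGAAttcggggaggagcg
Ccnb1 (chr13:100786437-100786736, minus strand): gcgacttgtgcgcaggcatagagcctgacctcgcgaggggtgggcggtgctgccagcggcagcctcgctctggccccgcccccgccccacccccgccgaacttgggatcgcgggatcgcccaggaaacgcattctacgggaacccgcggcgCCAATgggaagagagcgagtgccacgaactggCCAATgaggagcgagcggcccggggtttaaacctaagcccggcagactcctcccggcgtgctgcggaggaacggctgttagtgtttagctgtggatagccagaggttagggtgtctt
Cdk1 (chr10:69352863-69353162, minus strand): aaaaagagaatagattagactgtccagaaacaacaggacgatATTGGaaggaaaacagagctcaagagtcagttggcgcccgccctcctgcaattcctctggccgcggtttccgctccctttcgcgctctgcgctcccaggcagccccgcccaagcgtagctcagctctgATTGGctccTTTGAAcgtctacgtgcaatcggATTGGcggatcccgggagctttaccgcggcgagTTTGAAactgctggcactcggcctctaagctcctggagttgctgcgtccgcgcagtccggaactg
Top2a (chr11:99024140-99024439, minus strand): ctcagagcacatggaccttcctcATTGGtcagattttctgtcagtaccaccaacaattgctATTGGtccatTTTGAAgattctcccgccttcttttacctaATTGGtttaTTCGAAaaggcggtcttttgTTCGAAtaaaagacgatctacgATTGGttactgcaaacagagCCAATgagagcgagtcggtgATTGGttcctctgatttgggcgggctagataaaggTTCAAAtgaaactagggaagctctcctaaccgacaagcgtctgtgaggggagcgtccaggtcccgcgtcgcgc

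Across the 37 promoters listed for 35 of the genes, 28 (75.7%) held a CHR word and 29 (78.4%) a CCAAT box, against 19.2% and 37.4% of all 32851 RefSeq promoters of the same length. Both elements stood together in 24 of the 37 (64.9%), against 7.52% of all promoters. Cdk1 and Top2a held both words more than once, with 2 CHR and 3 CCAAT matches in Cdk1 and 4 CHR and 6 CCAAT matches in Top2a. Ube2c held 1 CHR word and 6 CCAAT matches, a pair of which overlap on opposite strands. Plk1 had 1 of each. In Ccnb1 these letters gave 2 CCAAT matches and no CHR word. Of the 52 promoters found for the genes of DNA replication and S phase, 17.3% held a CHR word and 59.6% a CCAAT box, so the CHR word was about as common there as among all promoters. Of the 65 promoters found for G2/M genes outside the list, 63.1% held a CHR word, 72.3% a CCAAT box and 50.8% both. These elements were therefore not particular to the list. A match is a match of letters only, and binding was not measured. Ccna2, Aurkb and Smc4 have no entry either.

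The chromatin genes contain the most abundant transcript of the list. Hmgb2, a chromatin protein that bends DNA and is abundant in dividing cells, had 319.8 CPM in the KO-labelled library and 354.2 CPM in the WT-labelled library, a ratio of 0.903 (0.873 to 0.933). Mki67, which coats mitotic chromosomes and encodes the proliferation antigen Ki-67, had 34.3 CPM in the KO-labelled library and 37.4 CPM in the WT-labelled one (ratio 0.918, 0.827 to 1.02). For this familiar marker of dividing cells the interval included equality.

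All 5 genes of the cyclin and CDK group were lower, summing to 149.96 CPM in the KO-labelled and 209.5 CPM in the WT-labelled library (ratio 0.716, 0.683 to 0.75). Cks2, a small subunit that docks CDK1 to its targets, was the most abundant of them, with 95.04 CPM in the KO-labelled and 126.0 CPM in the WT-labelled library. Ccna2, encoding cyclin A2, which acts in both S phase and early mitosis, was nearest to equal, with 10.6 CPM in the KO-labelled and 13.2 CPM in the WT-labelled library (log2 ratio -0.30). Ccnb2, the second B-type cyclin, lay between it and Ccnb1, at a log2 ratio of -0.42.

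The group of mitotic exit had the lowest summed ratio of the 10 roles, 0.540 (0.507 to 0.576), and most of its UMIs were those of Ube2c. Cdc20, the adaptor that lets the APC/C see its first targets, had 14.9 CPM in the KO-labelled and 21.8 CPM in the WT-labelled library (log2 ratio -0.52). Cdca3, a trigger of mitotic entry through Wee1 destruction, had 8.10 CPM in the KO-labelled and 11.4 CPM in the WT-labelled library (log2 ratio -0.44). Of 17 genes of the APC/C itself and its adaptors, 0 were at least 1.5-fold apart in either direction, which is near the 6.56% lower and 5.44% higher of all genes, and their median log2 ratio was -0.03. Anapc11, the RING subunit, was at -0.38 and Anapc7, a scaffold subunit, at 0.41.

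Kinase and checkpoint genes were uneven. Aurka, the spindle-pole Aurora kinase, had 9.55 CPM in the KO-labelled and 13.5 CPM in the WT-labelled library (log2 ratio -0.45), whereas Aurkb, the Aurora kinase of the centromere and midzone, had 6.93 CPM in the KO-labelled and 7.40 CPM in the WT-labelled library (log2 ratio -0.08). The order of Aurka turned with the way cells were weighted: its log2 ratio was 0.11 when every cell counted equally. Bub1b, the checkpoint protein BubR1, was at -0.18. Bub1, the kinase that recruits it to kinetochores, and Ttk, the kinase at the head of the checkpoint, had 85 and 50 UMIs in the KO-labelled library and 104 and 89 UMIs in the WT-labelled library. For both, the interval of the ratio included 1.

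Of the chromosomal passenger complex, which holds Aurora B at the centromere, Birc5 (survivin) had 29.8 CPM in KO-labelled and 33.1 CPM in WT-labelled cells (ratio 0.902, 0.807 to 1.007), and Cdca8 (borealin) 19.9 CPM in KO-labelled and 26.2 CPM in WT-labelled cells (ratio 0.760, 0.666 to 0.866). With every cell counted equally, the log2 ratio of Birc5 was 0.06. Centromere and kinetochore genes were lower as a group, with a summed ratio of 0.705 (0.656 to 0.758). Cenpa, the histone variant that marks centromeres, had 28.4 CPM in KO-labelled and 41.9 CPM in WT-labelled cells (log2 ratio -0.54). Cenpe, a kinetochore motor, and Cenpf, a large kinetochore protein, followed at -0.54 and -0.49. Ndc80 and Nuf2 encode partners in the complex that grips microtubules. Ndc80 was at -0.28, and Nuf2, at -0.04, was nearest to 0 in the group. Their 4.13 to 7.65 CPM made them the faintest kinetochore genes, and both intervals included a ratio of 1.

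The kinesins were uneven too. Kif23, the kinesin of the midzone that is needed for cytokinesis, had 8.21 CPM in the KO-labelled and 12.2 CPM in the WT-labelled library (log2 ratio -0.52, but 0.01 when every cell counted equally). Kif11, which pushes spindle poles apart, had 12.9 CPM in the KO-labelled and 14.2 CPM in the WT-labelled library (log2 ratio -0.14). Kif20b, a kinesin of late mitosis, was at -0.19, and Kif2c, a microtubule depolymerase, at -0.47 on 59 and 121 UMIs in the KO-labelled and WT-labelled libraries.

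Condensin was the 1 role whose sum was not lower in the KO-labelled library (ratio 1.05, 0.994 to 1.12). Smc4, an ATPase subunit shared by both condensin complexes, had 103.7 CPM in the KO-labelled and 97.0 CPM in the WT-labelled library (ratio 1.07, 1.005 to 1.14). It was detected in 59.0% of KO-labelled and 49.8% of WT-labelled cells. Ncapd2, a regulatory subunit of condensin I, had 6.59 CPM in the KO-labelled and 7.57 CPM in the WT-labelled library.

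Spindle and microtubule genes summed to a ratio of 0.765 (0.729 to 0.804). Nusap1 and Tacc3 bind and stabilise spindle microtubules, and stood at log2 ratios of -0.53 and -0.46. Hmmr, a spindle assembly factor also known as a hyaluronan receptor, was at -0.26, and Ckap2, another spindle protein, at -0.23. Tubb4b, a beta-tubulin that is also made by resting cells, had 85.7 CPM in the KO-labelled and 106.7 CPM in the WT-labelled library (log2 ratio -0.31). Gtse1, a microtubule protein of G2 phase, was the faintest of the 39 genes, with 38 and 48 UMIs in the KO-labelled and WT-labelled libraries (log2 ratio 0.08, with an interval that spans equality). The cytokinesis pair was lower. Ect2, the exchange factor that switches on RhoA at the division plane, had 6.82 CPM in the KO-labelled and 9.73 CPM in the WT-labelled library (log2 ratio -0.46), and Anln, a scaffold of the contractile ring, was at -0.40. In all, the ratio interval lay below 1 for 25 of the 39 genes, included 1 for 13 and lay above 1 for 1, Smc4. The matching shares of all genes are not given, and the intervals leave out the spread between cells. These counts therefore do not set the list apart from other genes.

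Much of these library levels came from a small fraction of the cells. To compare cells at 1 depth, each was thinned to 5000 UMIs, which kept 698 KO-labelled and 1004 WT-labelled cells. The 39 genes then summed to a median of 1 UMI in the cells of both libraries, and to 3 or fewer in 83.0% of KO-labelled and 80.3% of WT-labelled cells. A thin tail reached 67 UMIs in the KO-labelled and 78 UMIs in the WT-labelled library. The mean was 3.11 ± 6.89 in KO-labelled and 4.01 ± 8.90 in WT-labelled cells (SD over cells, which are not replicates).

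**Figure D2:**
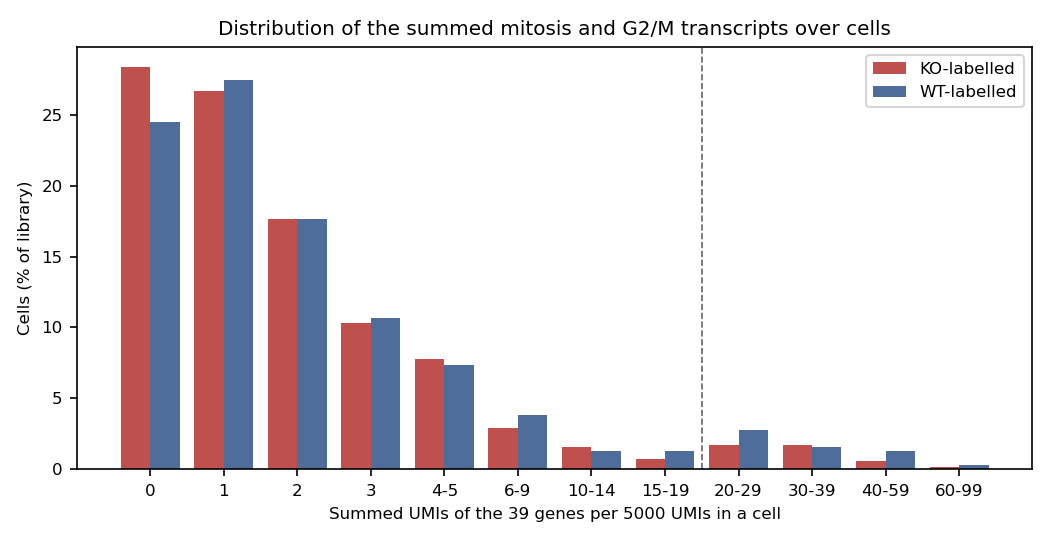
Share of cells of each library (y axis, %) by the summed UMIs of the 39 genes per 5000 UMIs (x axis). The dashed line marks 20 UMIs, above which lie 29 of 698 KO-labelled cells and 60 of 1004 WT-labelled cells.

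Cells with at least 20 UMIs of the list, called high-sum cells here, were 29 of 698 in the KO-labelled library (4.15%, 2.80 to 5.91) and 60 of 1004 in the WT-labelled library (5.98%, 4.59 to 7.63). These intervals overlap. The sum is a continuous measure and not a cell type: 10 KO-labelled and 27 WT-labelled cells lay between 15 and 24 UMIs. At 5000 UMIs per cell the high-sum cells carried 43.3% of the UMIs of the list in the KO-labelled library and 52.3% in the WT-labelled library. At full depth they carried 64.2% in the KO-labelled and 68.9% in the WT-labelled library, since they were large, with median totals of 63771 and 51895 UMIs in the KO-labelled and WT-labelled libraries, beside 21243 and 20534 UMIs in the other cells. At 5000 UMIs a high-sum cell had a median of 14 of the 39 genes detected in either library, between 5 and 23 in KO-labelled and 5 and 25 in WT-labelled cells, and the other cells a median of 1. The sum that placed the cells fixes much of that gap. Scrublet called 1 of the 29 KO-labelled and 0 of the 60 WT-labelled high-sum cells doublets. All 29 and all 60 had Cd8b1 transcripts, while Cd4 was seen in 0 KO-labelled and 2 WT-labelled high-sum cells. At least 3 of 11 dendritic cell markers were found in 2 KO-labelled and 1 WT-labelled high-sum cells, and at least 3 of 10 B cell markers in 0 KO-labelled and 1 WT-labelled ones. The dendritic markers summed to 105.4 CPM in KO-labelled high-sum cells and 44.0 CPM in WT-labelled ones, and in the other cells to 33.8 CPM in the KO-labelled and 46.7 CPM in the WT-labelled library. Their part in the results was not tested.

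4 genes were much less restricted to these cells. Hmgb2, Tubb4b, Smc4 and Cks2 were each found in 22.1% to 28.7% of KO-labelled and 21.7% to 31.3% of WT-labelled cells at 5000 UMIs, and in 16.8% to 18.5% of KO-labelled and 14.3% to 26.1% of WT-labelled cells that had no other transcript of the list. Those silent cells stand in for cells that lack mitotic transcripts, since no other cell type was at hand. Top2a, at the head of the other 35 genes, was found in 9.03% of KO-labelled and 11.6% of WT-labelled cells, and in 2.94% of KO-labelled and 4.28% of WT-labelled silent ones. Ube2c was found in 7.16% of KO-labelled and 9.16% of WT-labelled cells, and in 2.46% of KO-labelled and 1.60% of WT-labelled silent ones. The 4 broad genes supplied 55.7% of the list's UMIs in the KO-labelled and 49.8% in the WT-labelled library. Without them the summed level was 480.0 CPM in the KO-labelled and 688.1 CPM in the WT-labelled library, a ratio of 0.698 (0.680 to 0.716). With these 35 genes and 10 UMIs as the threshold, a setting chosen after seeing the data, 25 KO-labelled cells (3.58%, 2.33 to 5.24) and 63 WT-labelled cells (6.27%, 4.86 to 7.96) counted as high. At 20 UMIs the shares of these 35 genes were 0.860% of KO-labelled and 2.49% of WT-labelled cells.

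The difference between the libraries was smaller inside each kind of cell than over the whole. In high-sum cells the list summed to 6525 CPM in KO-labelled and 6865 CPM in WT-labelled cells (ratio 0.951, 0.930 to 0.971), and in the other cells to 434.8 CPM in KO-labelled and 495.6 CPM in WT-labelled cells (ratio 0.877, 0.851 to 0.904). High-sum cells supplied 10.7% of all UMIs of the KO-labelled and 13.8% of those of the WT-labelled library. With KO-labelled levels in both kinds of cell and the WT-labelled share of high-sum UMIs, the list would sum to 1274 CPM, 0.928 of the WT-labelled value. With WT-labelled levels and the KO-labelled share it would sum to 1175 CPM, 0.856 of that value. Splitting cells by the list's own sum narrows such differences by construction, so the ratios of single genes were taken with each gene left out of the sum that placed the cells. The other 38 genes still placed them, and these rise and fall together, so part of the narrowing remains. The values for all genes come from cells split by the full sum. High-sum cells then had 25 genes lower (42.1% of all genes were) and 14 higher in the KO-labelled library, with a median log2 ratio of -0.09 beside 0.08 for all genes. In these cells Ube2c was still lower, at 351.7 CPM in KO-labelled and 590.4 CPM in WT-labelled cells (log2 ratio -0.75), the 1 gene of the list at least 1.5-fold lower there, where 8.04% of all genes were. Bub1 was the 1 gene at least 1.5-fold higher there, at 38.0 CPM in KO-labelled and 23.8 CPM in WT-labelled cells on 70 and 80 UMIs, where 13.2% of all genes were. Outside them, with cells split by the full sum of the list, 11 genes of the list were above the floor. Of these, 3 were at least 1.5-fold lower and 0 higher, where 6.79% of all genes were that much lower there and 5.83% that much higher. With each gene left out of the sum instead, the genes above the floor and at least 1.5-fold lower there were Ube2c (15.7 CPM in KO-labelled and 30.3 CPM in WT-labelled cells), Cdk1 (3.57 CPM in KO-labelled and 7.72 CPM in WT-labelled cells) and Top2a (20.1 CPM in KO-labelled and 31.5 CPM in WT-labelled cells).

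**Figure D3:**
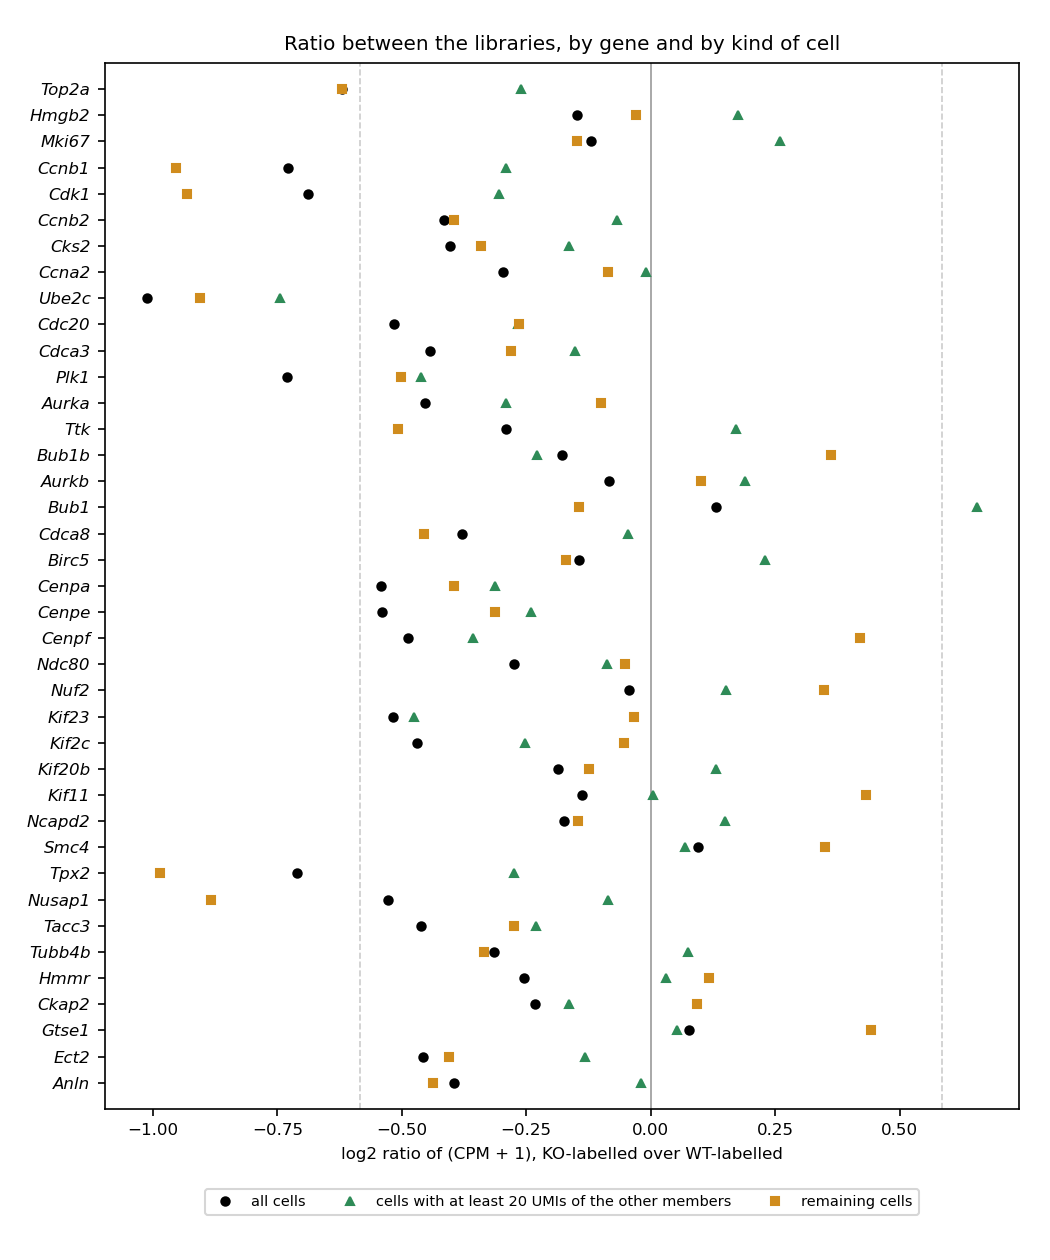
Log2 ratio of CPM + 1, KO-labelled over WT-labelled, for each of the 39 genes in all cells (circles), in cells with at least 20 UMIs of the other 38 genes (triangles) and in the remaining cells (squares); dashed lines mark 1.5-fold. Ube2c lies left of the dashed line in all 3, while Mki67, Hmgb2 and Birc5 lie right of 0 in high-sum cells and left of 0 over all cells.

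Transcripts of DNA replication were compared next, since S phase comes before mitosis and most of the mitotic set is transcribed from late S phase on. Summed over the library, the 62 S-phase genes did not differ as the mitotic genes did, at 1241 CPM in the KO-labelled and 1253 CPM in the WT-labelled library (ratio 0.99, 0.973 to 1.007). Of the 56 above the floor, 1 was at least 1.5-fold lower and 2 higher, where 6.56% of all genes were that much lower and 5.44% that much higher. The median log2 ratio of the 56 was -0.07. Mcm7, a subunit of the replicative helicase, was at -0.29, and Nasp, a histone chaperone, at 0.28. The genes at least 1.5-fold apart, Pole2 (a DNA polymerase epsilon subunit, -0.81), Ccne2 (cyclin E2, 0.88) and Brip1 (a repair helicase, 0.60), had at most 17.5 CPM in either library and are named after their values were seen. High-sum cells differed more: there 60 of the 62 S-phase genes were higher in the KO-labelled library and 2 lower, where 42.1% of all genes were lower. Their median log2 ratio was 0.56 beside 0.08 for all genes. In the other cells 32 of the 41 above the floor were lower, where 48.3% of all genes were, with a median of -0.27 beside 0.01 for all genes. These levels rest on 29 KO-labelled and 60 WT-labelled high-sum cells. S-phase genes were not used to choose the high-sum cells.

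The same appeared cell by cell. High-sum cells had a median of 17 S-phase UMIs per 5000 in the KO-labelled and 12.5 in the WT-labelled library, and the other cells 3 in both. Among cells with at least 7 S-phase UMIs, the top bin, 28 of 128 KO-labelled cells were high-sum (21.9%, 15.1 to 30.04) and 47 of 190 WT-labelled cells (24.7%, 18.8 to 31.5). Below 7 S-phase UMIs there was 1 high-sum cell among the 29 of the KO-labelled library (3.45%, 0.0873 to 17.8) and there were 13 among the 60 of the WT-labelled library (21.7%, 12.1 to 34.2). Put the other way, 13 of the 29 KO-labelled high-sum cells (44.8%) and 15 of the 60 WT-labelled ones (25%) also had at least 20 S-phase UMIs. Across cells, Pearson's r between both sums on the log scale was 0.464 in the KO-labelled and 0.445 in the WT-labelled library, over 698 and 1004 cells that share their library and depth.

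**Figure D4:**
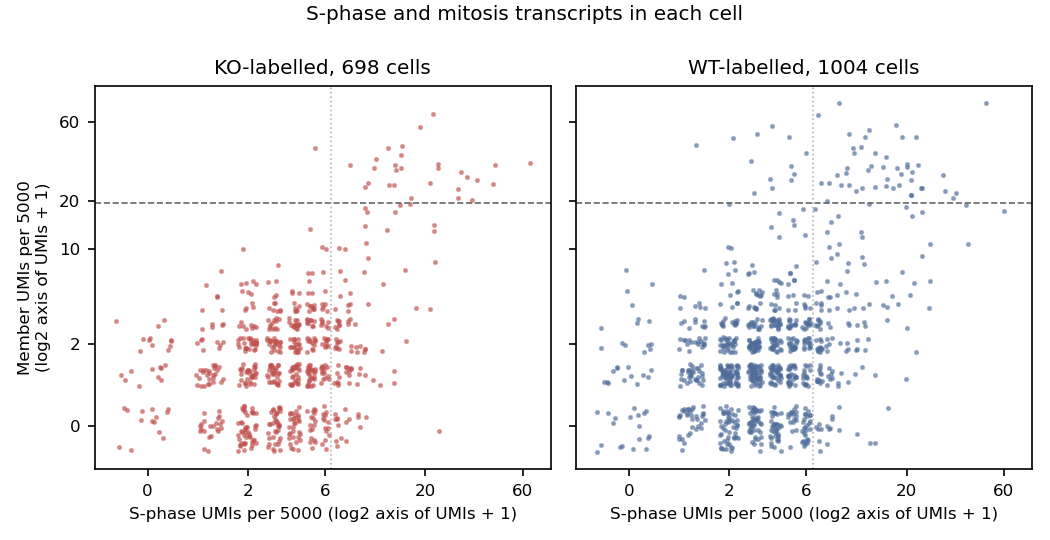
Summed S-phase UMIs (x axis) and summed UMIs of the 39 mitotic genes (y axis) per 5000 UMIs in each cell, on log2 axes of UMIs + 1 and spread by a small random shift, with KO-labelled cells on the left. The dashed line marks 20 mitotic UMIs and the dotted line 7 S-phase UMIs; the upper left field holds 1 KO-labelled and 13 WT-labelled cells.

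The cells were then set apart by the cytokines they transcribed, with at least 5 UMIs per 5000 counted as production. Il17a and Il17f encode the interleukin-17 cytokines of Tc17 cells, Ifng the interferon of type 1 cells and Il2 the growth factor of newly activated T cells. The mixture of producers differed strongly between the libraries: 239 of 698 KO-labelled and 26 of 1004 WT-labelled cells made Ifng with Il2 but not Il17a, while 43 KO-labelled and 207 WT-labelled cells made Il17a without Ifng or Il2. High-sum cells were most frequent among the last class in both libraries, at 7 of 43 KO-labelled cells (16.3%, 6.81 to 30.7) and 29 of 207 WT-labelled cells (14.0%, 9.59 to 19.5). With Il2 beside Il17a they were 6 of 93 KO-labelled cells (6.45%, 2.40 to 13.5) and 17 of 372 WT-labelled cells (4.57%, 2.68 to 7.22). Makers of Ifng and Il2 had 7 of 239 in the KO-labelled library (2.93%, 1.19 to 5.94) and 0 of 26 in the WT-labelled library (0%, 0 to 13.2). Cells with none of the 4 cytokines had 5 of 77 (6.49%) in the KO-labelled and 6 of 92 (6.52%) in the WT-labelled library. The intervals of the libraries overlap in all 8 classes. Between classes, the interval for Il17a alone overlaps that for none of the 4 in both libraries (2.14 to 14.5 in the KO-labelled, 2.43 to 13.7 in the WT-labelled). The interval for Il17a with Il2 overlaps that for Il17a alone in the KO-labelled library but not in the WT-labelled one.

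**Figure D5:**
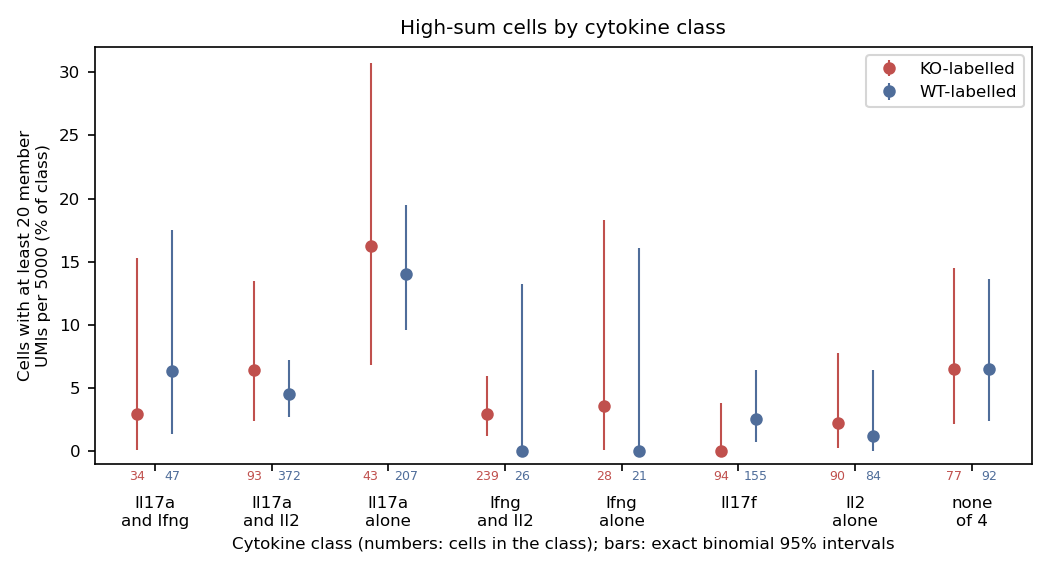
Share of high-sum cells (y axis, %) in each of 8 exclusive cytokine classes, KO-labelled left of WT-labelled in each pair, with exact binomial 95% intervals and the number of cells below. The class making Il17a alone is highest in both libraries, at 16.3% and 14.0%.

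Taken cytokine by cytokine, high-sum cells were 8.24% of Il17a producers and 2.84% of non-producers in the KO-labelled library, and 7.83% and 2.91% in the WT-labelled library. Counting intervals were 4.58 to 13.4 for producers and 1.60 to 4.64 for non-producers in the KO-labelled library, which overlap at the edge, and 5.85 to 10.2 and 1.46 to 5.15 in the WT-labelled one, which do not. Il2 ran the other way, with 3.06% of producers and 7.43% of non-producers high-sum in the KO-labelled library and 3.57% and 9.38% in the WT-labelled library. In the KO-labelled library the intervals overlap, at 1.76 to 4.92 for Il2 producers and 4.01 to 12.4 for non-producers. In the WT-labelled library they do not, at 2.22 to 5.41 and 6.75 to 12.6. At full depth, where high-sum cells had the larger totals, they still had fewer Il2 transcripts, with medians of 83 in high-sum and 128 in other KO-labelled cells, and 9 and 46 in WT-labelled cells. Il17f and Ifng divided the cells less. High-sum cells were 2.99% of Ifng producers and 5.04% of non-producers in the KO-labelled library, and 3.19% and 6.26% in the WT-labelled library.

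Because Il17a producers were rarer in the KO-labelled library, the shares were also weighted to equal class sizes. With the KO-labelled shares inside each class and the class sizes of the WT-labelled library, 6.82% of cells would be high-sum, beside 5.98% as measured in the WT-labelled library. With WT-labelled shares and the class sizes of the KO-labelled library the value was 3.00%, beside 4.15% as measured in the KO-labelled library. Several of these shares rest on 0 to 7 cells. The largest KO-labelled class, Ifng with Il2 at 34.2% of cells, was given the WT-labelled share of 0 of 26 cells. Weighted in the same ways, the mean sum per cell was 4.49 beside 4.01 as measured in the WT-labelled library. In the KO-labelled library it was 3.14 beside 3.11 as measured.

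Genes outside the list were ranked by how closely they followed its sum from cell to cell. Among 5319 genes of at least 20 CPM, the 10 with the highest Pearson r with the sum across cells (698 KO-labelled and 1004 WT-labelled, which share library and depth), averaged over both libraries, were Hist1h1b (0.61), Stmn1 (0.58), Hist1h2ap (0.56), Pclaf (0.53), Hist1h1e (0.49), Smc2 (0.46), Tubb5 (0.46), Hist1h3c (0.45), Hist1h2ae (0.45) and H2afz (0.45). 5 of them are clustered histone genes, which are transcribed during DNA synthesis, and 4 belong to the list of other G2/M genes. Stmn1 encodes stathmin, which destabilises microtubules, Pclaf a partner of the replication clamp PCNA, and Smc2 the partner of Smc4 in condensin. The median r of all 5319 genes was 0.01, and 36 exceeded 0.3. Of these 10, Tubb5, a beta-tubulin, differed most between the libraries, at 95.8 CPM in the KO-labelled and 170.9 CPM in the WT-labelled library (log2 ratio -0.83), followed by Hist1h2ae at -0.59. Pclaf was the 1 gene of the 10 that was higher in the KO-labelled library, at 80.6 and 75.9 CPM in the KO-labelled and WT-labelled libraries.

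Genes of the pathway outside the list were also counted. Of 67 other G2/M genes, 50 were above the floor, and 8 of these were at least 1.5-fold lower in the KO-labelled library and 0 higher, with a median log2 ratio of -0.18. That is 16.0% of the 50, beside 6.56% of all genes and 18.2% of the 33 mitotic genes above the floor. Tubb5 was the lowest above 20 CPM, and Kif15, a spindle kinesin, the highest, at 23.7 CPM in the KO-labelled and 17.2 CPM in the WT-labelled library (log2 ratio 0.44). Of 24 regulators of G2/M transcription, 19 were above the floor, with a median of -0.08. Of these 19, 1 was at least 1.5-fold lower and 0 higher, near the 6.56% lower and 5.44% higher of all genes. The 1 gene was Nfya, a subunit of NF-Y, at 12.3 CPM in the KO-labelled and 19.5 CPM in the WT-labelled library. E2f4, a repressive E2F of DREAM, was at -0.24, and Lin52, a MuvB subunit, at 0.46. Mybl2, which encodes B-Myb, had 5.53 CPM in KO-labelled and 5.89 CPM in WT-labelled cells, and Foxm1, which was below the floor, had 4.47 and 3.35 CPM. Of 24 genes of G1 cyclins, CDKs and CDK inhibitors, 18 were above the floor, with a median of -0.12. The 1 gene at least 1.5-fold apart was Cdkn2a, which encodes the CDK inhibitor INK4A and the ARF protein, at 10.6 CPM in KO-labelled and 2.70 CPM in WT-labelled cells. That count, 1 of 18, is near the 5.44% of all genes at least 1.5-fold higher. Ccnd3, encoding cyclin D3, had 30.6 CPM in KO-labelled and 45.7 CPM in WT-labelled cells (log2 ratio -0.56), and Ccnd2, encoding cyclin D2, 1131 CPM in KO-labelled and 932 CPM in WT-labelled cells (log2 ratio 0.28).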

How the data were processed

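Unique molecular identifiers were counted per gene and barcode in 1 library of each genotype. The deposited values are raw counts, made with Cell Ranger 7.0.0 (per the file headers) on mm10 (per the submitters' processing notes). The annotation, the counting of introns and the handling of reads that match several genes were not given in the sources used here, and the last could touch Tubb4b and the histone genes, which have close relatives. Gene identifiers of all 39 members were found in GENCODE on mm10.

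Barcodes were kept if 500 genes or more were detected and mitochondrial UMIs did not exceed 10%: 94.0% of 754 in the KO-labelled and 88.6% of 1149 in the WT-labelled library. The 12 multiplexing tags, 3.70% and 2.96% of counts, were left out of totals. No barcode is shared by the libraries (0). UMIs were summed over cells and divided by the library total (CPM), 1 UMI being 0.0559 CPM in the KO-labelled and 0.0409 CPM in the WT-labelled library. Log2 ratios use a pseudocount of 1 CPM, which understates low genes; other ratios and folds use none. Per-cell sums use cells thinned without replacement to 5000 UMIs, leaving out 11 KO-labelled and 14 WT-labelled shallower cells. Cytokine classes are exclusive: Il17a with Ifng, Il17a with Il2, Il17a alone, Ifng with Il2, Ifng alone, Il17f without Il17a or Ifng, Il2 without the other 3, and none of the 4; Il17a and Ifng alone means without Il2, whatever Il17f does. Bins of S-phase UMIs were set on both libraries together. Scrublet (scanpy 1.11.5, expected rate 5%) called 6 and 5 doublets, which were kept.

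Intervals are exact Poisson (sums), exact binomial (shares) and conditional binomial (ratios) at 95%. Named were every member, in each other list the lowest and highest log2 ratio among genes averaging at least 20 CPM, and the 10 genes most like the sum; Foxm1, Mybl2, Nfya and Cdkn2a were added after their values were seen. The members and lists were chosen with earlier results of these data known. Alternatives changed the scaling (with edgeR 4.0.16 TMM in R 4.3.3), pseudocount, floor, fold, barcode filter, doublets, weighting of cells, thinning, thresholds and the broad genes. The calculations, with SciPy 1.17.1, NumPy 2.4.6 and pandas 2.3.3 in Python 3.11.15, were first tested on simulated counts.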

Additional observations from a re-analysis of the deposited data

Results flagged for a closer look

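The summed level of the 39 genes differed at least 1.5-fold, in opposite directions, between the libraries in a pair of cytokine classes. The difference between the classes was not tested. In cells with Il17a and Il2 it was 2061 CPM in the KO-labelled and 931.0 CPM in the WT-labelled library, a log2 ratio of 1.15. A single cell held 25.5% of the list's UMIs of that class in the KO-labelled and 6.84% in the WT-labelled library. Without the high-sum cells the class had 558.1 CPM in the KO-labelled and 397.2 CPM in the WT-labelled library. In cells with Il17f but neither Il17a nor Ifng it was 331.8 CPM in the KO-labelled and 698.8 CPM in the WT-labelled library, a log2 ratio of -1.07. There 0 of 94 KO-labelled and 4 of 155 WT-labelled cells were high-sum, and a single cell held 6.29% of the list's UMIs in the KO-labelled and 16.4% in the WT-labelled library. Without the high-sum cells the class had 331.8 CPM in the KO-labelled and 432.2 CPM in the WT-labelled library. The other classes also went both ways. Their ratio, KO-labelled over WT-labelled, was above 1 for Il17a alone (1.27), Ifng alone (1.44) and Il2 alone (1.36). It was below 1 for Il17a with Ifng (0.945), Ifng with Il2 (0.876) and none of the 4 (0.873). For Ifng alone a single cell held 61.9% of the list's UMIs in the KO-labelled library.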

How the results depend on the processing

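The summed ratio of 0.790 was below 1 under all 9 alternatives, between 0.698 without the 4 broad genes and 0.840 with totals that leave out cytokines and chemokines; it was 0.768 at 5% mitochondrial UMIs or less. That change of totals moved the median of all genes to 0.10. The median log2 ratio stayed between -0.46 and -0.32 in 14 alternatives. The count of genes at least 1.5-fold lower ranged from 1 to 9: it was 3 with a pseudocount of 5 CPM, 3 with a floor of 20 CPM and 1 at 2-fold, and the count higher was 0 in all 14. Of the 39 genes, 5 (Aurka, Birc5, Ndc80, Nuf2 and Kif23) changed the sign of their log2 ratio in 1 of 10 alternatives each. High-sum shares in the KO-labelled and WT-labelled libraries were 6.45% and 8.57% at 10 UMIs, 2.44% and 3.19% at 30 UMIs, and 0.860% and 2.49% without the 4 broad genes. Without those genes the KO-labelled shares were 0% for Il17a with Ifng, 1.08% for Il17a with Il2, 0.418% for Ifng with Il2, 0% for Ifng alone, 0% for Il2 alone, 1.30% for none of the 4 and 3.91% in the top S-phase bin; the WT-labelled shares were 0% for Il17a with Ifng, 2.42% for Il17a with Il2, 5.31% for Il17a alone, 0% for Il2 alone and 8.42% in the top S-phase bin. These shares keep 20 UMIs as the threshold with fewer genes to reach it. The KO-labelled share for Ifng alone, 1 cell of 28, was 0% at 2500 UMIs, at 10000 UMIs and with another thinning seed, and the WT-labelled share in the top S-phase bin was 16.6% at 2500 UMIs. The cause was not tested where none is given. Intervals cover counting error only, and genes below 5 CPM are limited by their few UMIs. No paired analysis was possible because each group has 1 library.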
